A study of Mus musculus with 14 samples.

Results

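The Cdkn2a locus of mouse chromosome 4 was examined in single-cell DNA coverage, together with its neighbours Mtap, Cdkn2b, Ifnb1, Dmrta1 and Elavl2. Every bin of the deposited table that overlaps 1 of these 6 genes in the mm10 build was taken, which gave 5 of the 4880 bins, and the 5 bins beyond each end served as flanks. Cdkn2a, Cdkn2b and Mtap fall in 1 bin, which is called the Cdkn2a bin below. The question was whether this bin stood below its surroundings in the melanoma line, in circulating tumor cells and in the DP class, and in which single cells. The table covers 648 cells of 14 samples, each cell amplified by MALBAC, which copies single-cell DNA in looping cycles before sequencing.

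B16F10, a metastatic melanoma line kept here as an adherent culture, comes from C57BL/6J mice. Of the samples, 9 came from female C57BL/6J mice aged 6 to 8 weeks that received fluorescently labelled B16F10 cells and no other drug, and their 539 cells were sorted from blood and lung into 43 circulating tumor cells (CTC, in 5 samples), 450 DP cells (9 samples) and 46 white blood cells (WBC, 6 samples). The other 5 were controls of 1 sample each, among them the B16F10 culture (22 cells). The rest, listed as from female naive C57BL/6J mice aged 6 to 8 weeks, were 21 WBC, 18 CDP, 24 Duplike and 24 PltLike cells. The descriptions do not spell out DP, CDP, Duplike or PltLike, and they do not say whether a sample is 1 mouse, so p-values measure only the spread between these samples. The sort used tumor and host markers, and the culture cells are listed with the cell type CTC as well. DNA coverage holds no expression markers, so the classes could not be checked that way. Depth is unknown, as the coverage came with no read counts. The bin-to-bin noise of the cells, the median absolute log2 difference of neighbouring bins, ran from 0.160 to 0.303.

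Cdkn2a encodes 2 unrelated proteins from separate first exons, the kinase inhibitor p16INK4a, which blocks CDK4 and CDK6 and so keeps the RB protein active, and p19ARF, which holds back MDM2 and so stabilises p53. Cdkn2b beside it encodes p15INK4b, a second inhibitor of the same kinases. Loss of this locus is one of the common deletions of melanoma, it often takes along Mtap, whose enzyme salvages methionine and adenine, and B16 lines have been described as lacking intact Cdkn2a. On the other sides lie a cluster of type I interferon genes with Ifnb1, which encodes interferon beta, Dmrta1, a gene of the doublesex-related family, and Elavl2, which encodes a neuronal RNA-binding protein.

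In the mm10 annotation Cdkn2a spans chromosome 4 from 89274473 to 89294619, Cdkn2b from 89306289 to 89311032 and Mtap from 89137370 to 89181090. Their bin runs from 88993196 to 89569809, a width of 576614 bases. Cdkn2a fills 3.49% of it, Cdkn2b 0.823% and Mtap 7.58%, and the stretch from the start of Mtap to the end of Cdkn2b fills 30.1%. A value of this bin is therefore an average in which the 2 inhibitor genes are a small part. The bin holds 11 annotated genes, of which these 3 are the protein-coding ones.

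Ifnb1 (88522025 to 88522794) lies in the next bin to the left, 88438857 to 88993195, which holds 34 coding genes, 17 of them interferon genes. Dmrta1 (89688198 to 89694766) lies in the next bin to the right, 89569810 to 90147597. After 1 bin with none of the 6 genes, Elavl2 (91211533 to 91400108) spans a pair of bins. The bin over its 3′ part, 90719172 to 91285730, could be used. The bin over its 5′ part stood at the table's ceiling value of 10 in 227 of 648 cells (35.0%) and was not compared.

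The 3 start sites that give the locus its inhibitors are shown because all of them fall inside the single Cdkn2a bin, so the table cannot tell p16INK4a, p19ARF and p15INK4b apart. Each line gives the 250 bases upstream of a start on the minus strand, 5′ to 3′, from RefSeq on GRCm38.p6, with every CG in capitals.
Cdkn2a, upstream start (p19ARF), chr4:89294620-89294869: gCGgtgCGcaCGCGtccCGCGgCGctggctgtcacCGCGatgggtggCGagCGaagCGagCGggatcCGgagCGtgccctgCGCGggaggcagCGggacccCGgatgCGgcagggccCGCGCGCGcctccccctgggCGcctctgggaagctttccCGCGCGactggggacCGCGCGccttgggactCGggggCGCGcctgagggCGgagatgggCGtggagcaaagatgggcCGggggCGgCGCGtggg
Cdkn2a, downstream start (p16INK4a), chr4:89282193-89282442: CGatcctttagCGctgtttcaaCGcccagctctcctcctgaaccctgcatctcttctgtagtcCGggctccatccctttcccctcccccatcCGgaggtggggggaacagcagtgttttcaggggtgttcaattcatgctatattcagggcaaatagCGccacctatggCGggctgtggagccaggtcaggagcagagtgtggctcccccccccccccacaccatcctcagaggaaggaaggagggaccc
Cdkn2b (p15INK4b), chr4:89311033-89311282: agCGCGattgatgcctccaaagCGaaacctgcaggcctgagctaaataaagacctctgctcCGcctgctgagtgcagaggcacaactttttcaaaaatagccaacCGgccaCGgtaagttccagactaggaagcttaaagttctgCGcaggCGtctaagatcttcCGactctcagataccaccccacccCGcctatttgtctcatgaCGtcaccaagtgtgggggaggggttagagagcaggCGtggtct
The upstream Cdkn2a window holds 40 CG and 78.4% G or C, and 98.7% of the 32851 promoter windows of the same length in that table hold fewer CG. The downstream window holds 7 CG, close to the median of 6 over those windows, and the Cdkn2b window holds 12. All 6 genes had a promoter entry. Coverage says nothing of methylation or activity at these windows.

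Each cell's value at a bin was divided by the median of its 10 flank bins, and this focal ratio is 1 where a bin carries as much signal as its surroundings. In the B16F10 culture the Cdkn2a bin averaged 0.894 ± 0.0988 (SD over 22 cells of 1 sample), with cells from 0.758 to 1.04. In naive WBC it averaged 1.07 ± 0.118 (SD over 21 cells of 1 sample), with cells from 0.924 to 1.40. The line stood lower by 0.178, the ranges overlapped, and 13 of the 22 culture cells (59.1%) lay below every one of the 67 WBC, against 1.89% of the values of all bins counted the same way. With 1 sample a group there is no test.

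Among the bins of the locus the dip of the line fell on the Cdkn2a bin. Relative to naive WBC, coverage of the culture was 0.816 at the Cdkn2a bin, 0.989 at the Ifnb1 bin, 0.989 at the Dmrta1 bin and 0.980 at the 3′ part of Elavl2. On the log2 scale the Cdkn2a bin moved by -0.28 against the Ifnb1 bin, by -0.28 against Dmrta1 and by -0.25 against Elavl2. Taking every bin of the autosomes against flanks at the same distances, the difference at Cdkn2a was -0.26 on the log2 scale (0.834-fold), and 1.61% of 3853 bins had a lower one. Differences under -0.2 were found at 2.96% of these bins. The wider chromosome stepped down further on, since the median difference was -0.01 over the 136 bins left of the flanks, -0.01 over the flank bins and -0.37 over the 110 bins right of them.

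**Figure D1:**
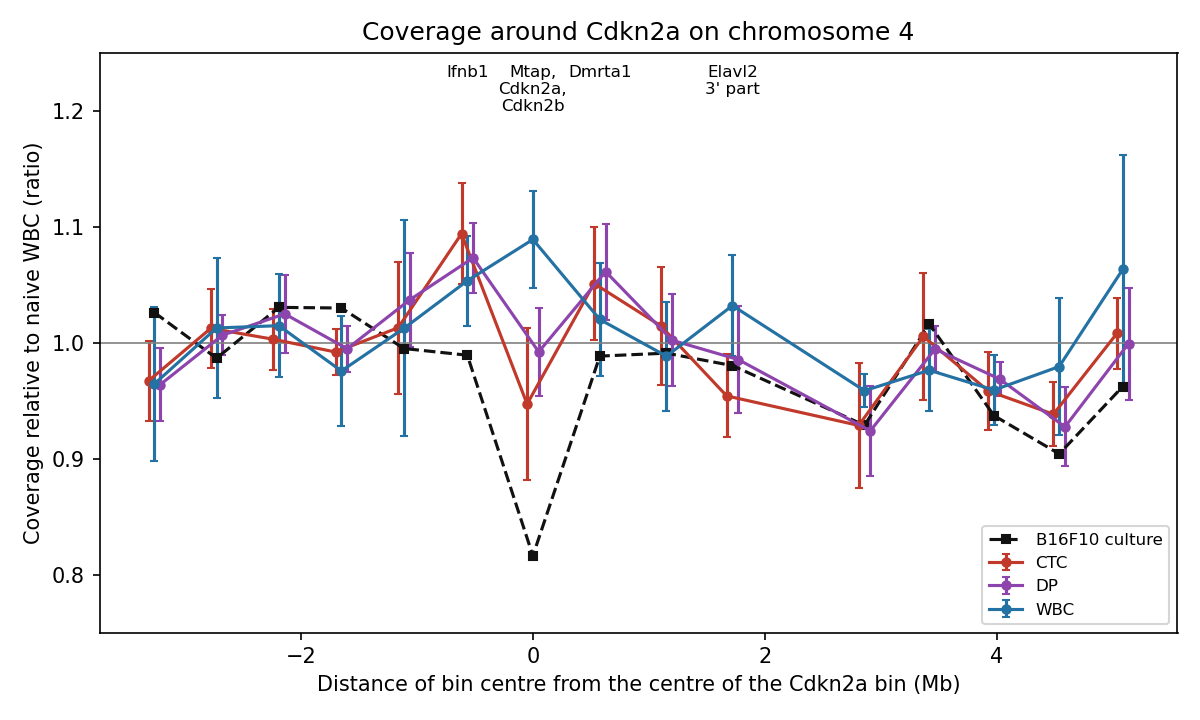
Coverage of the bins around Cdkn2a relative to naive WBC (ratio, y axis) against distance of the bin centre from the Cdkn2a bin in Mb (x axis), for the B16F10 culture (1 sample, no error bar) and for CTC, DP and WBC (mean and SD over 5 samples). The culture falls to 0.816 at the Cdkn2a bin, against 0.904 at its next lowest bin, CTC lie at 0.947, DP at 0.992 and WBC of injected mice at 1.09, and the bin over the 5′ part of Elavl2 is left out.

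The classes were ordered by their mean focal ratio at Cdkn2a over cells. Lowest was the culture at 0.894, followed by CDP at 0.974 ± 0.0700 and CTC at 1.02 ± 0.195. Naive WBC came next at 1.07, then DP cells at 1.10 ± 0.180 and PltLike cells at 1.10 ± 0.165. Highest were Duplike cells at 1.16 ± 0.243 and WBC of injected mice at 1.18 ± 0.116, all SDs over cells. Each neighbouring pair in this order differed by less than the larger of the pair's SDs. The order was not the same by medians, which were 0.882 in the culture, 0.961 in CTC, 0.962 in CDP, 1.05 in PltLike cells, 1.06 in naive WBC, 1.07 in Duplike cells, 1.09 in DP cells and 1.18 in WBC of injected mice. The culture stood lowest and WBC of injected mice highest by the median, and the Duplike mean included a cell at 1.98.

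WBC of injected mice stood above naive WBC, the other host control. All 46 of them lay at or above 1.00, while 7 of 21 naive WBC lay under 1. On the log2 scale the Cdkn2a bin of these WBC differed from that of naive WBC by 0.11, and their flank bins by -0.04. The naive WBC are 1 sample, so the difference was not tested.

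**Figure D2:**
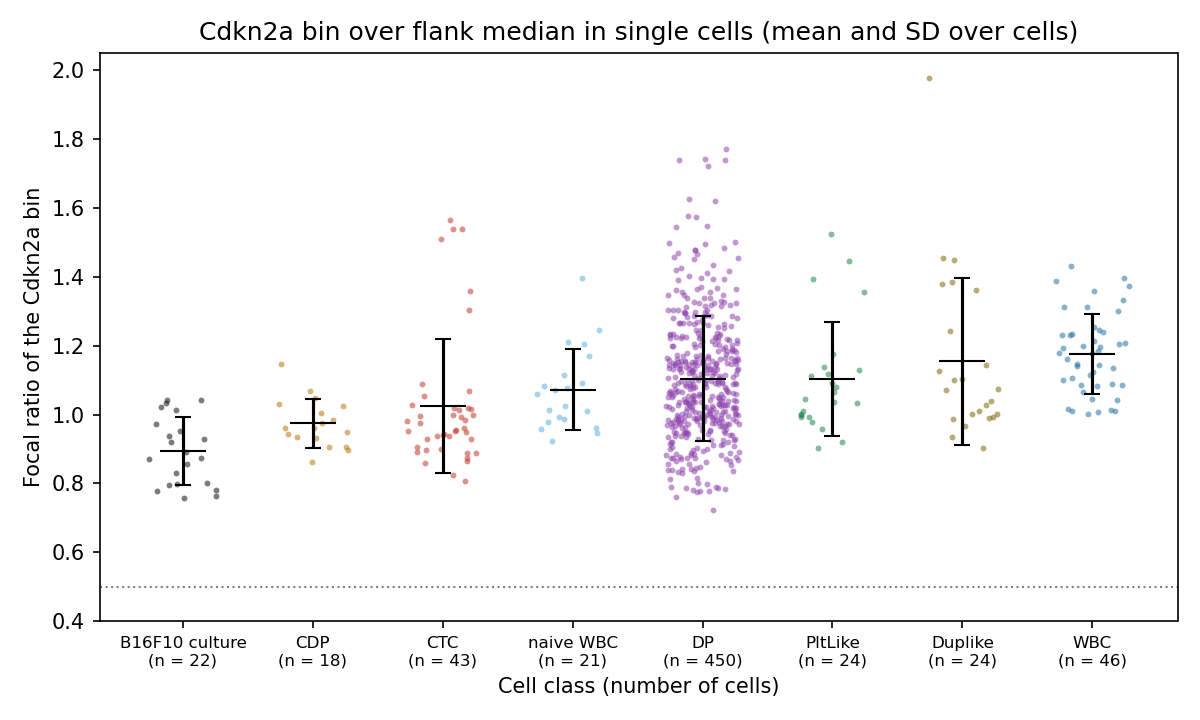
Focal ratio of the Cdkn2a bin (y axis) in every cell, by class (x axis), with the mean and SD over cells in black and a dotted line at 0.5. No cell lies under 0.5, culture cells lie between 0.758 and 1.04, and CTC gather near their median of 0.961 with 6 cells above 1.3.

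The first comparison set CTC against the WBC sorted from their own sample, to see whether tumor cells in the animal keep the dip of the line. The mean focal ratio of CTC was 1.14 in sample C1L, 0.917 in C1N, 1.07 in C1R, 0.973 in C2R and 1.10 in C3R. That of WBC was 1.18 in C1L, 1.17 in C1N, 1.23 in C1R, 1.11 in C2R and 1.22 in C3R. CTC were lower within each of the 5 samples, but the sample means overlapped, since CTC of C1L lay above WBC of C2R. The mean over the CTC samples was 1.04 ± 0.0913, and the means of C1N and C2R were under 1. Of the 43 CTC, 29 (67.4%) lay under 1, beside 17 of 22 culture cells (77.3%). WBC of these samples averaged 1.18, so a ratio of 1 is not the level of host cells at this bin. CTC over WBC was 0.879-fold, beside 0.834-fold for the culture over naive WBC. These folds have different references, so they do not compare the dips directly. With naive WBC as the reference for both, coverage of the bin was 0.947 in CTC and 0.816 in the culture. The CTC minus WBC difference was -0.143 ± 0.0782 (SD, n = 5 samples). A two-sided exact sign-flip test over samples gave p = 0.0625, the lowest reachable with 5 pairs, and 0.105 after Benjamini-Hochberg adjustment over 6 comparisons of this ratio.

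Fitted over all bins with limma and the sample as a block, the Cdkn2a bin relative to the autosomal median was lower in CTC by 0.21 on the log2 scale (-0.21, SE 0.0429, adjusted p = 0.000567). Lower calls were common in this comparison, at 30.8% of 4376 bins. Against the flanks, where 7.25% of 4095 bins were called lower, the bin was lower as well (-0.20 in log2, 0.873-fold, SE 0.0392, adjusted p = 0.00534), and 3.44% of bins had a lower value. Both calls held under the 11 and 12 alternatives run for them.

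The bins on either side were not called. The mean focal ratio of the Ifnb1 bin was 1.04 ± 0.0535 in CTC and 0.994 ± 0.0617 in WBC, and that of Dmrta1 was 1.32 ± 0.0513 and 1.26 ± 0.0431 (SD, n = 5 samples). By limma they had adjusted p of 0.357 and 0.370 relative to the autosomal median and 0.487 and 0.271 against the flanks. Elavl2 was called relative to the autosomal median (-0.12, SE 0.0401, adjusted p = 0.0200) and not against the flanks (adjusted p = 0.187). Within the same cells, the CTC minus WBC difference of the Cdkn2a bin was -0.27 ± 0.0851 against the Ifnb1 bin and -0.27 ± 0.0983 against Dmrta1, below 0 in 5 of 5 samples (log2, exact sign-flip p = 0.0625 each, 0.0833 after adjustment over 12 such contrasts). Against the 3′ part of Elavl2 it was smaller, at -0.10 ± 0.0751, and also below 0 in 5 of 5 samples (same exact p).

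CTC varied more at Cdkn2a than at most of the genome. The SD of the log2 focal contrast over the 43 cells was 0.241, against a median of 0.159 over 3853 bins, and 94.7% of bins varied less. Among WBC of injected mice the SD was 0.141, and 23.3% of bins varied less. A wide spread was not particular to CTC, as 90.7% of bins varied less in DP cells and 96.4% in Duplike cells. In the culture, naive WBC, PltLike and CDP cells these shares were 74.6%, 58.8%, 55.4% and 35.9%. The 6 CTC above 1.3 were 1 of C1L, 3 of C1R, 1 of C2R and 1 of C3R, and each came from blood. Across the 43 CTC the focal ratio correlated with the noise of the cell (Pearson r = 0.741) and the Cdkn2a bin with the Ifnb1 bin beside it (r = 0.713), as a description of cells that share 5 samples. The part of noise in this spread was not tested. Among cells below the median noise the CTC minus WBC difference was -0.215 ± 0.0497 in the 3 samples left.

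In lung, 15 CTC were sorted. Those of C2R averaged 0.920 ± 0.0520 (SD over 10 cells) against 1.11 ± 0.301 for its 4 blood CTC, and those of C1R averaged 0.973 ± 0.0518 (4 cells) against 1.10 ± 0.196 (11 cells). The single lung CTC of C1N stood at 0.906. Lung CTC minus lung WBC was -0.163 in C1R and -0.170 in C2R, and blood CTC lay below blood WBC in 5 of 5 samples (-0.119 ± 0.0757, exact p = 0.0625).

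The DP class was then set against the WBC sorted from its own sample. DP means were 1.07 in C1L, 1.10 in C1N, 1.12 in C1R, 1.02 in C2R and 1.07 in C3R, each under the WBC of its sample. The 4 other samples with DP cells had means of 1.19 in C2N, 1.17 in P1, 1.07 in P2 and 1.18 in P4. The DP minus WBC difference was -0.104 ± 0.0274 (SD, n = 5 samples, lower in 5 of 5, exact sign-flip p = 0.0625, adjusted 0.105). C1N differed least and C3R most, at -0.0701 and -0.145. These means pool the tissues. Blood DP cells lay below blood WBC in 5 of 5 samples (-0.150 ± 0.0726, exact sign-flip p = 0.0625). Lung DP minus lung WBC was -0.0913 in C1N, but 0.0302 in C1R and 0.0676 in C2R.

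By limma the Cdkn2a bin of DP cells was lower than that of WBC relative to the autosomal median (-0.14, SE 0.0299, adjusted p = 0.0101), where 24.7% of bins were called lower. Against the flanks, where 2.15% of bins were called lower, it was lower too (-0.13 in log2, 0.911-fold, SE 0.0274, adjusted p = 0.0234). The Ifnb1, Dmrta1 and Elavl2 bins were not called on either scale. The call against the flanks was lost without C1L (adjusted p = 0.0867), C2R (0.0935) or C3R (0.159), without the block (0.0728) and when C2N entered with its 2 WBC (0.116). The call relative to the autosomal median was lost without C2R (0.0520) and in cells below the median noise (0.0672).

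**Figure D3:**
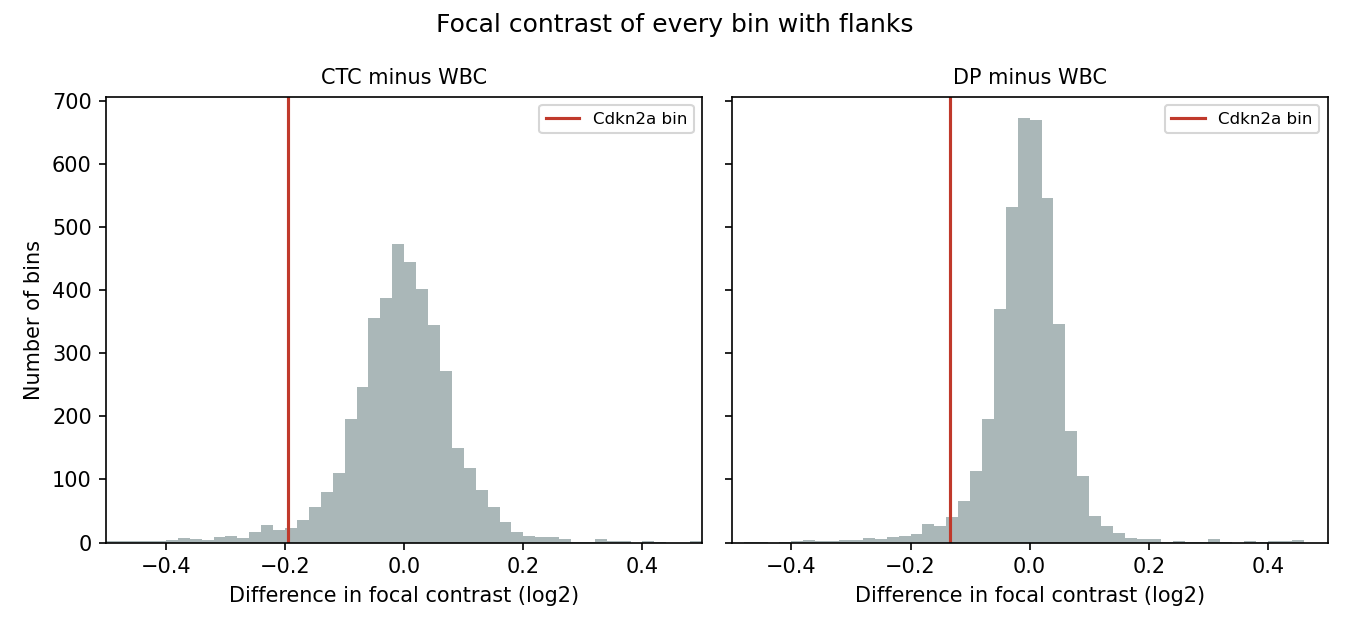
Histograms of the log2 difference in focal contrast over 4095 bins (x axis, number of bins on the y axis) for CTC minus WBC and DP minus WBC, with the Cdkn2a bin as a red line. The line stands at -0.20 and -0.13, with 3.44% and 3.42% of bins lower.

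CTC and DP cells were set against each other. CTC were lower in 3 of 5 samples, by -0.0395 ± 0.0971 on average (exact sign-flip p = 0.5). The differences ran from -0.186 in C1N to 0.0656 in C1L. By limma the Cdkn2a bin differed by -0.07 relative to the autosomal median (adjusted p = 0.283, lower calls at 15.3% of bins) and by -0.06 against the flanks (adjusted p = 0.580, lower calls at 0.366%). These comparisons share samples with those above. The size and direction of this difference moved with the choice of cells and samples. No choice passed, but the paired tests could not, since the lowest exact sign-flip p is 0.0625 with 5 pairs and higher with fewer. With the median of cells CTC were lower in 5 of 5 samples, by -0.0802 on average (exact p = 0.0625), and in cells below the median noise lower in 3 of 3, by -0.104 (exact p = 0.25). Without C1N the average was -0.00281 and without C1L -0.0658. In blood cells alone it turned to 0.0313 and against DP cells near coverage level 3.7 to 0.0342 (exact p = 0.625 and 0.3125). In lung cells it was -0.193 in C1R and -0.237 in C2R. Set against the Ifnb1 bin of the same cells, CTC minus DP was -0.10 ± 0.0802, lower in 5 of 5 samples (log2, exact sign-flip p = 0.0625, adjusted 0.0833). Against Dmrta1 and Elavl2 it was lower in 3 of 5 each.

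DP cells were not alike at this locus. A copy-number score was computed for each cell from the autosomes without chromosome 4, with 0 at the mean of naive WBC and 1 at the mean of the culture, so the locus played no part in it. Of the 450 DP cells, 270 scored above 0.5 and are called tumor-like, and 180 are called host-like. Over all cells the Cdkn2a focal ratio averaged 1.04 ± 0.158 in the tumor-like and 1.21 ± 0.161 in the host-like cells (SD over cells).

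By sample, the tumor-like DP cells averaged 1.03 in C1L, 1.03 in C1N, 1.06 in C1R, 0.949 in C2R, 1.06 in C3R, 1.06 in P1, 1.04 in P2 and 1.10 in P4. The host-like DP cells averaged 1.20, 1.14, 1.17, 1.19, 1.21, 1.27, 1.38 and 1.23 in the same order. Every tumor-like mean lay below every host-like mean, so the 2 kinds did not overlap over 8 samples, as at 2.75% of 3853 bins. The difference was -0.184 ± 0.0775 (SD, n = 8 samples, lower in 8 of 8), with an exact sign-flip p of 0.0078125, the smallest that 8 pairs allow, and 0.046875 after adjustment over the 6 comparisons. In P2, whose 3 host-like cells average highest, the difference was -0.337, and without any 1 sample it ran from -0.195 to -0.162.

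Tumor-like DP cells were lower than host-like ones, with means over samples of 1.04 and 1.22, beside 0.894 in the culture. Of the tumor-like cells 128 of 270 (47.4%) lay under 1, and of the host-like cells 10 of 180 (5.56%). The tumor-like mean of C2R, 0.949, was under 1 as well. The Cdkn2a bin was also set against each neighbouring bin of the same cells. Relative to the Ifnb1 bin it stood at 0.02 in tumor-like and 0.28 in host-like cells, a difference of -0.26 ± 0.0918 in log2. Relative to the Dmrta1 bin it stood at -0.40 and -0.09, a difference of -0.31 ± 0.0644. Both differences were below 0 in 8 of 8 samples (exact p = 0.0078125 each, adjusted 0.046875). Relative to Elavl2 it stood at 0.09 and 0.27, a difference of -0.18 ± 0.121, below 0 in 7 of 8 (exact p = 0.015625, adjusted 0.0625). The focal ratio of Dmrta1 itself was 1.36 in tumor-like and 1.30 in host-like cells, higher in 7 of 8 samples (0.0673 ± 0.0718, exact p = 0.03125, 0.25 after adjustment over the 24 tests of the other bins). That of Ifnb1 was 1.02 and 1.01 (0.00987 ± 0.0884, exact p = 0.757812). The noise of tumor-like minus host-like cells was -0.0156 ± 0.0151 (exact p = 0.046875, adjusted 0.328), and its part in the result was not tested. In cells below the median noise the Cdkn2a difference was -0.148 ± 0.0600 over 7 samples, lower in all 7.

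**Figure D4:**
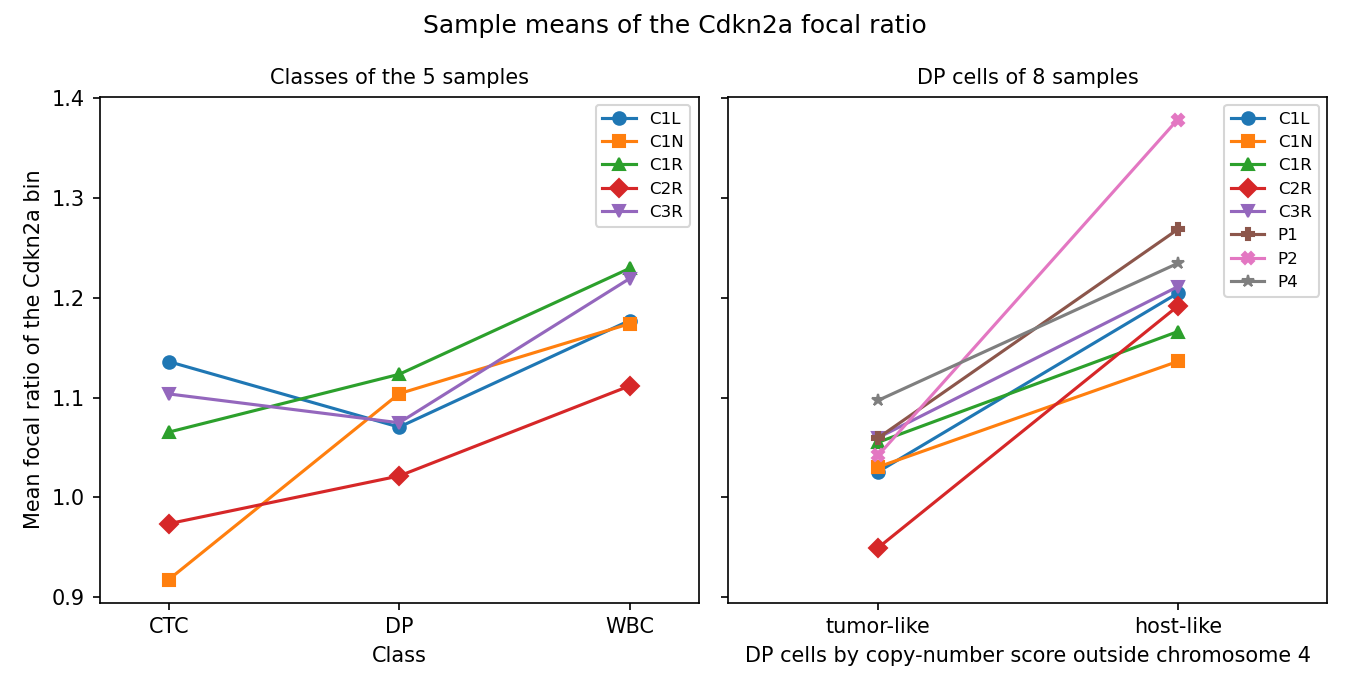
Mean focal ratio of the Cdkn2a bin (y axis) per sample, joined by lines, for CTC, DP and WBC of 5 samples (left) and for tumor-like and host-like DP cells of 8 samples (right). CTC and DP lie below WBC in each of the 5 samples, and the tumor-like DP means from 0.949 to 1.10 lie below the host-like means from 1.14 to 1.38.

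The autosomal medians of the cells gather at levels near 1.8, 3.7, 5.6, 7.7 and 9.6, and all WBC lie near 1.8 while the culture and all CTC lie near 3.7. DP cells filled the 5 levels. At Cdkn2a they averaged 1.21 ± 0.163 near 1.8 (177 cells), 1.03 ± 0.166 near 3.7 (219), 1.05 ± 0.115 near 5.6 (29), 1.16 ± 0.101 near 7.7 (9) and 1.03 ± 0.131 near 9.6 (16; SDs over cells). DP cells near 1.8 differed from WBC by -0.00371 ± 0.0551 (exact p = 0.9375), and those near 3.7 by -0.177 ± 0.0186, lower in 5 of 5 samples (p = 0.0625). These splits by level, and that of CTC against DP cells near 3.7, were added after seeing the data.

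DP cells near 5.6 or 7.7 were also set against those near 3.7. Their ratio was 1.08 ± 0.0529 against 1.03 ± 0.0545 (SD, n = 8 samples). It was higher in 7 of 8 samples, by 0.0502 ± 0.0709, and did not pass (exact sign-flip p = 0.0703, adjusted 0.105). This call turned on the choice of cells, since the difference was 0.0900 in cells below the median noise, higher in 8 of 8 samples (exact p = 0.0078125), and 0.0803 with the median of cells (exact p = 0.015625), both p unadjusted. Without C1N it was 0.0314, and without P2 it was 0.0612 (exact p = 0.015625, unadjusted). The 18 CDP control cells, all near 5.6, averaged 0.974 with a mean score of 0.694, beside 1.05 and 0.689 for the DP cells of that level.

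**Figure D5:**
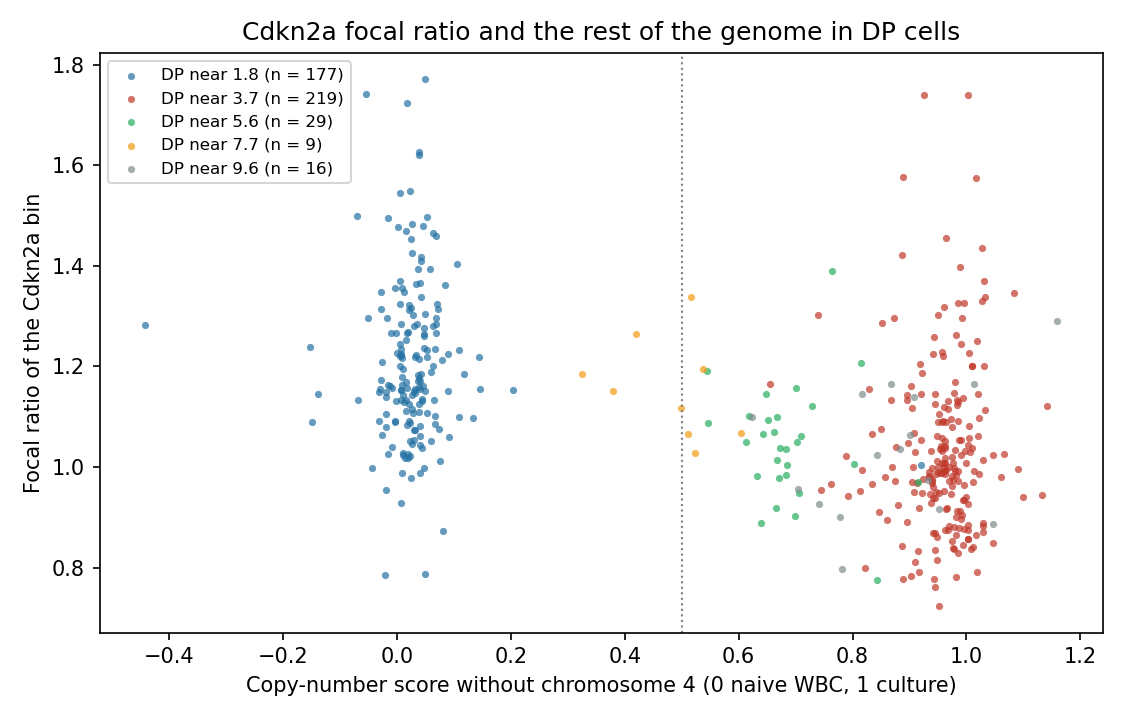
Focal ratio of the Cdkn2a bin (y axis) against the copy-number score without chromosome 4 (x axis, 0 at naive WBC and 1 at the culture) in the 450 DP cells, coloured by coverage level, with the limit of 0.5 dotted. Cells near 1.8 sit close to a score of 0 with a mean ratio of 1.21, and cells near 3.7 close to 1 with a mean of 1.03, with wide overlap between them.

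Tissue was compared within samples. Lung DP cells averaged 1.23, 1.10, 1.17, 1.16 and 1.11 in C1L, C1N, C1R, C2R and P1, and blood DP cells 1.04, 1.10, 1.06, 0.934 and 1.22. Lung was higher in 3 of 5 samples, by 0.0831 ± 0.137 (exact sign-flip p = 0.3125, adjusted 0.375), and P1 went the other way at -0.106. The average was 0.0483 without C2R and 0.130 without P1. Neither could pass, since the lowest exact sign-flip p is 0.125 with 4 pairs, and 0.0625 with 5. The makeup of the DP cells differed between the tissues as well, since 30 of 33 blood cells of C1L, 11 of 22 of C1N, 21 of 23 of C1R, 39 of 39 of C2R and 11 of 46 of P1 were tumor-like. In lung these counts were 0 of 7, 0 of 14, 1 of 34, 6 of 25 and 34 of 47. The tissue with fewer tumor-like cells had the higher ratio in C1L, C1R, C2R and P1. In C1N it did not, since lung minus blood was -0.000706 there. Both tissues held both kinds in P1 and C1R. In P1 tumor-like cells averaged 1.07 in blood and 1.05 in lung, and host-like cells 1.27 in each. In C1R the single tumor-like lung cell stood at 0.971 against 1.06 for the 21 of blood, and its host-like lung cells averaged 1.17 against 1.06 for the 2 of blood. The part of this makeup in the tissue difference was not tested.

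Single cells were then searched for a loss of the whole bin. A focal ratio under 0.5 was found in 0 of 648 cells (a share of up to 0.463% is allowed by that count), while 0.813% of the values of all bins in all cells lay there. That share was 0.714% in naive WBC and 0.698% in the culture, so it is not a rate of tumor loss. WBC averaged 1.07 (naive) and 1.18 (injected mice) at this bin, so losing part of its copies need not bring a cell under 0.5. Nor need a deletion from Mtap to Cdkn2b alone, a stretch of 30.1% of the bin. The count cannot speak to either. A ratio under 0.75 was found in 1 cell, a DP cell near 3.7, against 6.02% of all values and 5.3% of those in naive WBC. The lowest cell stood at 0.723 and the highest, a Duplike cell, at 1.98. Cells below every WBC, under 0.924, numbered 11 of 43 CTC (25.6%, exact Clopper-Pearson 95% interval 13.5% to 41.2%) and 62 of 450 DP cells (13.8%, 10.7% to 17.3%). Among tumor-like DP cells they were 59 of 270 (21.9%, 17.1% to 27.3%) and among host-like ones 3 of 180 (1.67%, 0.345% to 4.79%). Over all bins, each with its own lowest WBC, these shares were 2.65% in CTC, 2.81% in DP, 2.71% in tumor-like and 2.96% in host-like DP cells. The intervals speak to counting alone, since cells share their samples.

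The control classes spread around these values. Below 0.924 lay 4 of 18 CDP, 1 of 24 Duplike and 2 of 24 PltLike cells. Duplike and PltLike cells had the noisiest profiles, with median noise of 0.225 and 0.235 against 0.182 in CTC. In PltLike cells the focal ratio correlated with noise (r = 0.794 over 24 cells of 1 sample), beside r = -0.0167 over the 22 culture cells. The copy-number score without chromosome 4 averaged 0.909 in the 24 PltLike cells. In Duplike cells it averaged 0.906 near 3.7 (9 cells) and 0.668 near 5.6 (14), with 0.477 in the 1 cell near 7.7. Duplike and PltLike cells thus scored toward the culture, as did CDP cells at 0.694, although all are listed as from naive mice. The mean Cdkn2a focal ratios were 1.10 (PltLike) and 1.16 (Duplike). Chromosome 4 right of the flanks stood at -0.24 (Duplike) and -0.27 (PltLike) relative to naive WBC in log2, beside -0.31 in CTC. The Cdkn2a bin stood at 0.12 and 0.05. The bins beside it were raised as well. As ratios to naive WBC, PltLike cells stood at 1.16 at Ifnb1, 1.04 at Cdkn2a and 1.23 at Dmrta1. Duplike cells stood at 1.08, 1.09 and 1.14 there. Each class is 1 sample, so this was not tested.

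The pathway around the locus was described by 18 genes of the RB and p53 axis. In CTC against WBC the bins of 4 were higher (background 19.4% of bins) and those of 5 lower (30.8%), with a median difference of -0.000277 beside -0.02 over all bins. The inhibitors Cdkn1b (0.60, SE 0.0436, adjusted p = 1.43e-08) and Cdkn1a (0.49, SE 0.0432, adjusted p = 1.26e-07) were higher, as was the cyclin gene Ccnd2 (0.51, SE 0.0396, adjusted p = 2.71e-08). Cdk4, the target of p16INK4a (-0.44, SE 0.0414, adjusted p = 2.27e-07), Mdm2, the target of p19ARF (-0.44, SE 0.0423, adjusted p = 3.02e-07), and the transcription factor gene E2f2 (-0.37, SE 0.0492, adjusted p = 9.80e-06) were lower. The Cdkn2a relatives Cdkn2c and Cdkn2d were not called, at 0.04 (adjusted p = 0.520) and 0.05 (0.454), nor was Trp53 at -0.01 (0.872). In DP cells against WBC 3 were higher (background 14.3%) and 4 lower (24.7%), and in CTC against DP cells 3 were higher (9.21%) and 2 lower (15.3%). In CTC against WBC the shares of the 18 genes called were near the backgrounds. Each value is that of the 1 bin over the gene's midpoint relative to the autosomal median, and none was set against its flanks. Changes of longer chromosome segments are therefore not told apart from changes at a gene, and genes sharing a segment are not separate results.

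Over 34 means of a class in a sample and tissue, the bins outside chromosome 4 that followed the Cdkn2a bin most closely were 126751703 to 127273644 on chromosome 10, over Avil (r = 0.907). The same bin also holds the midpoint of Cdk4. Next came 120832126 to 121363463 on chromosome 10, over Wif1 (r = 0.897), and 45282589 to 45813569 on chromosome 14, nearest to Fermt2 (r = 0.892). The bins beside Cdkn2a itself followed it hardly at all on this measure, with r = 0.140 for Ifnb1 and r = 0.00733 for Dmrta1. These means mix tumor and host classes, so r was not separated from the difference between those classes. The means also share samples, and the r values describe them without a test.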

How the data were processed

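The deposited coverage signal was normalised by the authors and covers each bin in each cell, on mm10 with BWA, Picard, SAMtools and Trim Galore among the tools, per the submitters' processing notes. The scale, the bins and the ceiling at 10 are not described in the sources used here, and 26 cells hold values above it.

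Class, tissue and sample came from the deposited cell table. The pairing is the shared sample label. Cells were averaged per class and sample, and a sample entered a pair if each side had 3 cells or more (1 for coverage levels). Paired differences went through a two-sided exact sign-flip permutation test over samples, adjusted by Benjamini-Hochberg. Over all bins limma 3.58.1 (R 4.3.3) was run on log2(value + 0.1) minus the autosomal median, and on each bin minus the median of bins at the same distances as the Cdkn2a flanks, with sample as a block and a 5% false discovery rate. Bins at the ceiling in 1% of cells or more were dropped, which left 4376. In simulated data of these 2 fits 60% to 61% and 79% to 94% of changes of 0.2 were recovered, with independent noise between bins.

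The members and lists were chosen with earlier results of these data known. Of the 18 pathway genes, the 6 with the smallest adjusted p in CTC minus WBC were named. Cdkn2c, Cdkn2d and Trp53, none of them called there, were named outside that rule. Bins most like Cdkn2a were the 3 of highest r outside chromosome 4. Other work used scipy 1.17.1, pandas 2.3.3 and numpy 2.4.6 in Python 3.11.15, with plots from matplotlib 3.10.9. Alternatives changed flanks, summary, noise, tissue, pairing, minimum cells, pseudocount and bin filter, and left out each sample.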

Additional observations from a re-analysis of the deposited data

How the results depend on the processing

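For the CTC minus WBC difference at Cdkn2a, all 14 alternatives kept the lower direction, from -0.215 to -0.115, as did all 17 for tumor-like minus host-like DP cells. For DP minus WBC all 16 did too, but DP cells near 1.8 gave only -0.00371, lower in 3 of 5 samples and higher in 2 (exact p = 0.9375). The largest difference, -0.177, was that of DP cells near 3.7. Both of these splits were added after seeing the data. Among the other alternatives the smallest difference was -0.0830. Without the replicate block, CTC minus WBC (-0.143) and DP minus WBC (-0.104) reached exact p = 0.0159 each. CTC minus DP turned to 0.0313 in blood cells and 0.0342 against DP cells near 3.7, and ran from -0.0658 to -0.00281 without single samples. Lung minus blood ran from 0.0483 to 0.130 without single samples. Tumor-like minus host-like DP cells gave -0.150 in blood (exact p = 0.0625, the lowest with 5 pairs). DP cells near 5.6 or 7.7 minus near 3.7 passed at unadjusted p with the median of cells (0.0803), in cells below the median noise (0.0900) and without P2 (0.0612), and ran from 0.0314 to 0.0612 without single samples.

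By limma, called bins numbered 2195, 1709 and 1072 for CTC minus WBC, DP minus WBC and CTC minus DP, and 976 to 1751 for DP minus WBC without single samples. For CTC minus DP they were 500 below the median noise and 581 without the block. Without single samples they ran from 0 to 1146, with 0 without C1N, C1R or C2R, where 1325, 1204 and 1340 bins had an unadjusted p under 0.05. Called focal contrasts numbered 518, 148 and 34. They ran from 263 to 562 for CTC minus WBC, 10 to 353 for DP minus WBC and 7 to 55 for CTC minus DP without single samples. For DP minus WBC they were 299 over all bins, 18 with at least 1 cell and 74 without the block. For CTC minus DP they were 7, 83 and 13 over all bins, below the median noise and without the block. The causes were not tested.

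Depth is unknown, and Cdkn2a is 3.49% of its bin, so these values are those of the bin. Smaller bins were not analysed here.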

Other observations

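The 5′ part of Elavl2 is the bin that could not be compared. Its median focal ratio was 2.18 in the culture, 1.95 in naive WBC, 2.41 in CTC and 3.92 in WBC of injected mice, and single cells ran from 0.904 to 6.97. A cell at a high coverage level meets the ceiling of 10 at a lower ratio, so these medians have no order between levels. The bin between Dmrta1 and Elavl2, which holds none of the 6 genes, had a mean focal ratio of 1.00 ± 0.0467 in CTC, 0.983 ± 0.0409 in DP cells and 0.968 ± 0.0587 in WBC (SD, n = 5 samples). It was not called by limma in any class comparison against the flanks.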
